A study of Mus musculus with 7 samples.

Results

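The genes described here encode the major histocompatibility complex (MHC) class I molecules of the mouse and the proteins that load them with peptide. They were chosen by symbol. The rule took 31 of the 25469 genes with a count in at least 1 library: 21 class I heavy chain genes of the H2 complex (3 classical, 8 Q, 5 T and 5 M genes) and 10 genes of the light chain, peptide loading and class I transcription. The series is RNA-sequencing of CD4+CD25+ splenocytes, the bead-isolated fraction in which regulatory T cells (Tregs) are enriched, and it asked how these cells differ between aged and young mice. The aged group was WT mice of 18 months (3 libraries) and the young group WT mice of 8 weeks (4 libraries). Each library is labelled as a biological replicate, and the labels name no allele or agent for either group. The study's methods describe male C57BL/6 mice and give a slightly older age for the young animals, and the series' design text names magnetic beads as the means of isolation. How many mice went into a library is not given in the sources used here. In bulk RNA of this kind, fewer cells of a type and less RNA per cell cannot be told apart.

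Class I molecules display short peptides from inside the cell to CD8+ T cells and natural killer cells. A heavy chain pairs with the light chain β2-microglobulin in the endoplasmic reticulum, where the TAP transporter delivers peptides made by the proteasome and the peptide-loading complex fits them into the groove. The classical heavy chains are on nearly all nucleated cells, while the Q, T and M chains have narrower or more specialised uses. NLRC5 is the transactivator that drives class I gene transcription in lymphocytes, and interferons are known to raise many genes of the pathway.

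Gene counts per library ran from 10734234 to 13649310, with the 4 young libraries all deeper than the 3 aged ones. Every library held reads of the 6 Treg and CD4 T cell markers listed (Foxp3, Ikzf2, Ctla4, Cd4, Il2ra and Cd3e), whose median log2 fold change in aged cells was 0.33 and whose summed levels overlapped between the ages. edgeR called Cd3e higher (adjusted p = 0.0301), a call kept in 2 of 7 fits with 1 library left out, and called none of the other 5. At an unadjusted p under 0.05, 3 of the 6 were higher (Cd3e, Ikzf2 and Ctla4, at log2 fold changes of 0.46, 0.46 and 0.86) and 2 lower (Cd4 at -0.30 and Il2ra at -0.61). The edgeR call of Ctla4 was gained without young replicate 2 (1.24, adjusted p = 0.00593) and that of Il2ra without aged replicate 1 (adjusted p = 0.0158). DESeq2 called 1 of the markers higher and 2 lower, and limma voom 1 and 1. Levels are CPM, counts scaled to the TMM-corrected size of each library, and are given in the order of the replicate numbers. A gene was called where edgeR's quasi-likelihood test gave a Benjamini-Hochberg adjusted p under 0.05 over all 13904 genes tested. A level was counted as detectable above 3 reads, which is 0.21 to 0.30 CPM on this scale. The cDNA had no molecular identifiers, so such a limit allows for counting error alone and not for reads copied in amplification.

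Of the class I genes, 11 rose in aged cells, and among these 11 the 5 Q genes had the largest log2 fold changes (0.90 to 3.23). Of the 31 genes, 25 passed the filter on low counts. Of these 25, 11 were called higher in aged cells and 0 were called lower, where 9.80% of all genes tested were called higher and 6.94% lower. Without adjustment, edgeR gave p under 0.05 for 18 of the 25 as higher in aged cells and for 1, Erap1, as lower, against 17.6% and 15.1% of all genes tested. DESeq2 called 16 of the 27 class I genes to which it gave an adjusted p higher and 0 lower, against 9.37% and 8.22% of its genes. limma voom called 13 of the 25 higher and 0 lower, against 9.39% and 7.03%. The aged and young libraries did not overlap for 16 of the 25 genes, all higher in aged cells, against 15.5% of all genes tested whose libraries separated in that direction. The median log2 fold change was 0.43 over the 25 genes, 0.58 over the 15 H2 genes and 0.28 over the 10 light chain and loading genes, beside 0.02 over all genes tested. The called genes were Q genes (5 of the 6 tested), T genes (3 of 4), 1 of the 2 M genes tested, Tap1 and Nlrc5. None of the 3 classical genes, the light chain, the 2 peptide editors, the trimming enzyme or the 3 chaperones was called by edgeR. Of these 10 genes, 5 were higher and 1 lower at an unadjusted p under 0.05, and DESeq2 called 3 and limma voom 2 of them higher.

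**Figure D1:**
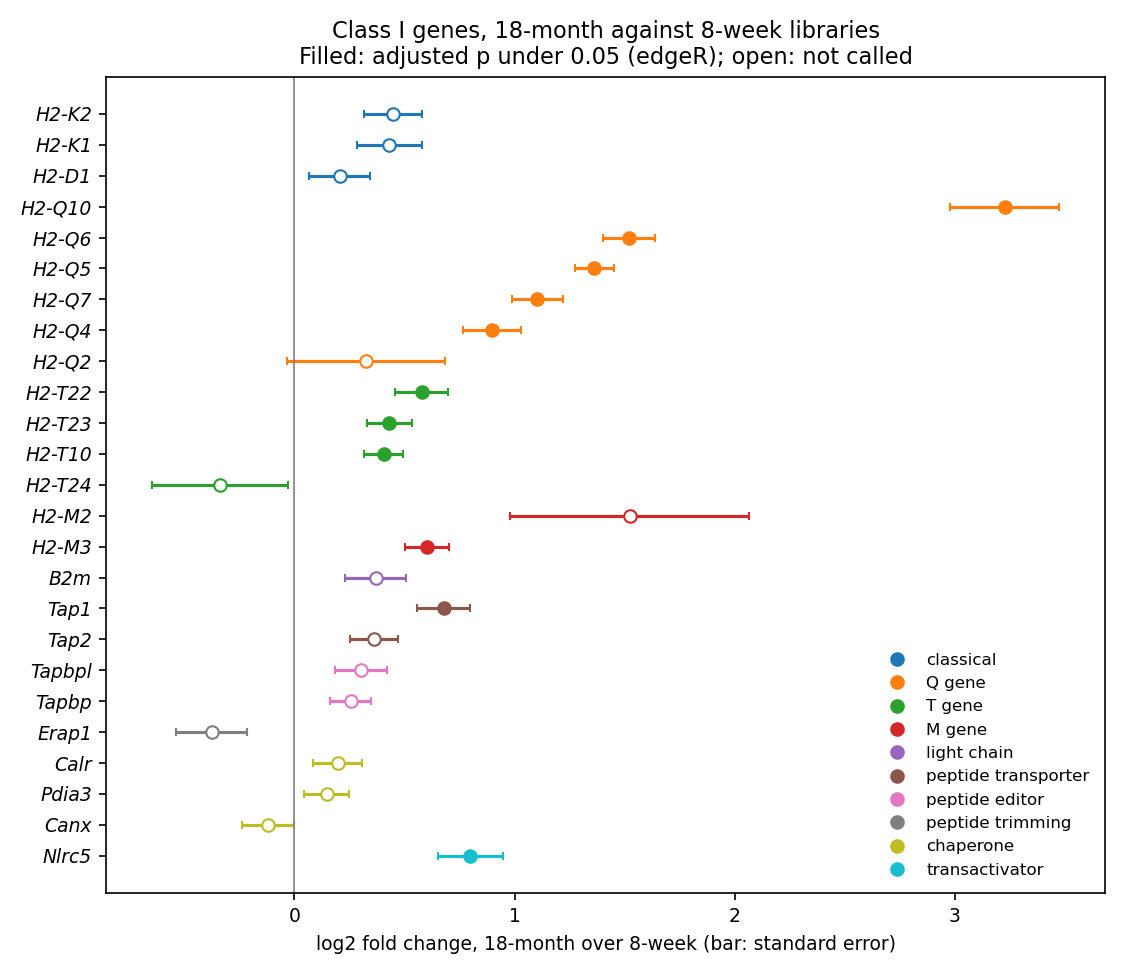
Log2 fold change of aged (18-month, n = 3) over young (8-week, n = 4) cells for the 25 class I genes that passed the filter, with bars of 1 standard error from edgeR. Filled points had an adjusted p under 0.05; the 11 filled points all lie to the right of 0, with H2-Q10 at 3.23 and the Q genes H2-Q6, H2-Q5, H2-Q7 and H2-Q4 next among them.

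Other measures also moved with age in these libraries. Mitochondrial genes took 5.08% to 10.7% of the gene counts in aged libraries and 2.63% to 3.23% in young ones. With the mitochondrial, immunoglobulin and haemoglobin genes left out, 12 of the class I genes were called higher. The summed CPM of 4 platelet markers did not overlap between the ages (18.8 to 39.4 in aged and 8.13 to 16.8 in young libraries, 1 of the 4 called higher), and neither did that of 5 NK cell markers (17.4 to 27.7 in aged and 28.3 to 39.4 in young, 1 of the 5 called lower). For 6 neutrophil markers the sum was 638 to 4223 CPM in aged and 222 to 772 CPM in young libraries, and the median log2 fold change of these markers was 1.92. Of the 6, edgeR called 3 higher, DESeq2 4 and limma voom 2, and all 6 were higher at an unadjusted p under 0.05. The 6 B cell markers (0 called by edgeR, 2 lower at an unadjusted p under 0.05, 2 lower by DESeq2 and 1 by limma voom) and the 5 plasma cell markers (1 called higher) summed to 834 to 1547 and 748 to 1301 CPM in aged libraries and to 1254 to 1895 and 325 to 1999 CPM in young ones. Monocyte or macrophage markers (1 of 6 higher, 2 lower) and dendritic cell markers (1 of 6 higher, 2 lower) overlapped in their sums, at 269.9 to 548 against 363 to 447 CPM and 41.1 to 62.9 against 55.8 to 74.8 CPM. The 2 CD8 T cell markers and the 5 erythroid markers, 0 of them called by edgeR, DESeq2 or limma voom and 0 at an unadjusted p under 0.05, ran from 45.4 to 92.7 CPM and from 12344 to 155754 CPM over all libraries. No marker was at 0 in every library. The part of these cells and of the mitochondrial share in the class I results was not tested.

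The promoters of 4 of the called Q genes hold letters of the class I enhancer that also lie in the classical genes H2-K1 and H2-D1. The called genes H2-Q5, H2-T10 and Nlrc5 had no entry in the promoter table used, so their promoters were not analysed here. Each stretch given here has 130 bases, 5′ to 3′ on the strand of the gene, from the RefSeq promoters (GRCm38.p6). They were chosen because they hold the class I enhancer or an interferon response element of the genes whose levels follow. The Erap1 promoter also holds an interferon-stimulated response element, but its stretch is not given here. Capitals mark, on either strand, GGGGATTCCCC (the κB element of the class I enhancer, as H2-K1 has it), TTTCACTTCT (the interferon response sequence next to it in H2-K1) or TTTCNNTTTC (an interferon-stimulated response element, as H2-T22 has it with any base between the repeats).
H2-K1 (chr17:34000358-34000487, minus strand): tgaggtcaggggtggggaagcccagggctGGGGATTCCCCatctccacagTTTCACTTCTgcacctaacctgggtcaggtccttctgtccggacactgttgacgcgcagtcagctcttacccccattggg
H2-D1 (chr17:35262894-35263023, plus strand): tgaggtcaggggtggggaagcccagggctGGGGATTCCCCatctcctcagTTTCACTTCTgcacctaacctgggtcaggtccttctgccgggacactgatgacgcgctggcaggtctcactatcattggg
H2-Q4 (chr17:35379414-35379543, plus strand): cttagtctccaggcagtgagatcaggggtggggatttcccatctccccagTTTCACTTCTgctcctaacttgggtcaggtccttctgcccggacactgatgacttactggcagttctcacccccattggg
H2-Q6 (chr17:35424648-35424777, plus strand): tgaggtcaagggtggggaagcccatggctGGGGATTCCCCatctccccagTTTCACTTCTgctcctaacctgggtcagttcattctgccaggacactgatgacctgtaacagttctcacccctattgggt
H2-Q7 (chr17:35438992-35439121, plus strand): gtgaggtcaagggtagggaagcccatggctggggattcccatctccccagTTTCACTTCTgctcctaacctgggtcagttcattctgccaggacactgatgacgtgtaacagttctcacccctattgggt
H2-Q10 (chr17:35469884-35470013, plus strand): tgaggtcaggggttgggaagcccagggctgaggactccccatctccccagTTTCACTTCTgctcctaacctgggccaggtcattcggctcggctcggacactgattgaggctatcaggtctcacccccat
H2-M3 (chr17:37270083-37270212, plus strand): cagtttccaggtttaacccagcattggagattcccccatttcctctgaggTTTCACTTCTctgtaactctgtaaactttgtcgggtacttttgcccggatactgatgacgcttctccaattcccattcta
H2-T22 (chr17:36042854-36042983, minus strand): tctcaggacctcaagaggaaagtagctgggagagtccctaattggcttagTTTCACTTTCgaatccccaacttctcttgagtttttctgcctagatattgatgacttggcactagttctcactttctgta
H2-T23 (chr17:36032746-36032875, minus strand): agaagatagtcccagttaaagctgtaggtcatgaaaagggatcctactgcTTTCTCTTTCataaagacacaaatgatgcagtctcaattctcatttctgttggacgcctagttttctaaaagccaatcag
B2m (chr2:122147498-122147627, plus strand): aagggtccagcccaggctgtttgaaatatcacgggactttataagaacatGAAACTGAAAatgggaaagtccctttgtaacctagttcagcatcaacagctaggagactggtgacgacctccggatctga
Promoter windows from 250 bases before to 50 after the start were found for 22 of the 31 genes. On either strand, TTTCACTTCT lay in 7 of these genes (H2-K1, H2-D1, H2-Q4, H2-Q6, H2-Q7, H2-Q10 and H2-M3), where 0.155% of all 32851 promoters hold it. These letters were chosen after the sequences were seen. GGGGATTCCCC lay in H2-K1, H2-D1 and H2-Q6, against 0.0304% of all promoters, and TTTCNNTTTC in B2m, Erap1, H2-T22 and H2-T23, against 3.44%. TTTCACTTCT and GGGGATTCCCC were taken from H2-K1 and TTTCNNTTTC from H2-T22, so these source genes match by construction. The shares of all promoters are given as background and are not a test of the class I genes. H2-Q6 holds both enhancer elements with the letters of the classical genes, while H2-Q7, H2-Q4 and H2-Q10 hold TTTCACTTCT without the full κB letters. At that place H2-Q7 reads ggggattccc, H2-Q4 ggggatttccc and H2-Q10 gaggactcccc. The split rests on an exact match to H2-K1 and does not show that these genes lack a κB element. The short elements TGACG (12 of the 22 genes, 20.8% of all promoters) and CCAAT (18 genes, 37.4%) are common in promoters at large. The 3 genes with GGGGATTCCCC differed in their calls: H2-Q6 was called higher, and H2-K1 and H2-D1 were not called. A match is a description of the letters and not a binding site.

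The Q genes lie side by side on chromosome 17, and 5 of them rose in aged cells. H2-Q4 to H2-Q10 span chr17:35379617-35474563 (GRCm38), a stretch of 94.9 kb in which the only other gene tested was Gm11131, which lies partly inside it, at H2-Q4 (log2 fold change 0.35, not called). H2-Q6 (chr17:35424850-35430055) and H2-Q7 (chr17:35439155-35443773) belong to the Qa-2 family, whose proteins are held on the surface of lymphocytes by a lipid anchor. The aged libraries held 1210.5, 1237 and 1437 CPM of H2-Q6, and the young ones 462, 471, 417 and 453 CPM. All aged libraries lay well above all young ones. H2-Q6 thus averaged 1295 ± 124 CPM over the 3 aged libraries (SD) and 451 ± 23.7 CPM over the 4 young ones. This was a 2.87-fold rise (log2 fold change 1.52, SE 0.117, adjusted p = 0.000377 in edgeR's quasi-likelihood test).

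In aged cells H2-Q7 was at 1024, 872 and 866 CPM, and in young cells at 463, 399, 426 and 427 CPM. The lowest aged library stood far above the highest young one. The means were 920.5 ± 89.7 (SD, n = 3) and 429 ± 26.2 CPM (SD, n = 4). For H2-Q7 the log2 fold change was 1.10 (SE 0.116, a 2.15-fold rise), and edgeR's quasi-likelihood test called it (adjusted p = 0.00117). H2-Q4 (chr17:35379617-35385290) is a further Q heavy chain. For H2-Q4, aged libraries gave 754, 699.6 and 882 CPM and young libraries 406, 475, 375 and 415 CPM. The ages again did not overlap. H2-Q4 thus averaged 779 ± 93.6 CPM over the 3 aged libraries (SD) and 418 ± 41.6 CPM over the 4 young ones. This was a 1.86-fold rise (log2 fold change 0.90, SE 0.131, adjusted p = 0.00365 in edgeR's quasi-likelihood test).

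H2-Q5 (chr17:35394126-35397800) carries the deposited gene type polymorphic pseudogene. H2-Q5 had 169, 174 and 188 CPM in the aged libraries and 68.1, 72.9, 70.6 and 63.7 CPM in the young ones. The libraries of each age lay close together and the ages were far apart. The means were 177 ± 9.99 (SD, n = 3) and 68.8 ± 3.95 CPM (SD, n = 4). For H2-Q5 the log2 fold change was 1.36 (SE 0.0888, a 2.57-fold rise), and edgeR's quasi-likelihood test called it (adjusted p = 0.000235).

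H2-Q10 (chr17:35470089-35474563) encodes a secreted class I protein that is best known as a product of the liver. It was the Q gene with the largest fold and a low level. The aged libraries held 10.6, 13.3 and 13.7 CPM of H2-Q10, and the young ones 1.57, 0.841, 1.26 and 1.65 CPM. These CPM rest on 121 to 146 reads in each aged library and on 12 to 23 reads in each young one. H2-Q10 thus averaged 12.5 ± 1.69 CPM over the 3 aged libraries (SD) and 1.33 ± 0.367 CPM over the 4 young ones. This was a 9.37-fold rise (log2 fold change 3.23, SE 0.248, adjusted p = 0.000377 in edgeR's quasi-likelihood test). Of the 75-base windows along its transcript, 13.5% also occur in another gene, 9.78% in H2-Q7, so a part of its reads cannot be placed with certainty.

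H2-Q2, the remaining Q gene that passed the filter, had 1.31, 1.91 and 3.37 CPM in aged and 2.27, 1.54, 1.42 and 1.79 CPM in young libraries. The ages overlapped, and the log2 fold change of 0.32 (SE 0.359, adjusted p = 0.578 in edgeR's quasi-likelihood test) turned to -0.12 (adjusted p = 0.866) without aged replicate 3. H2-Q1 had 4, 9 and 11 reads in aged libraries and 2 to 3 in young ones, and the pseudogene H2-Q3 had 0 to 7 reads in all libraries. Both stayed under the filter, and for H2-Q1 the ages did not overlap.

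**Figure D2:**
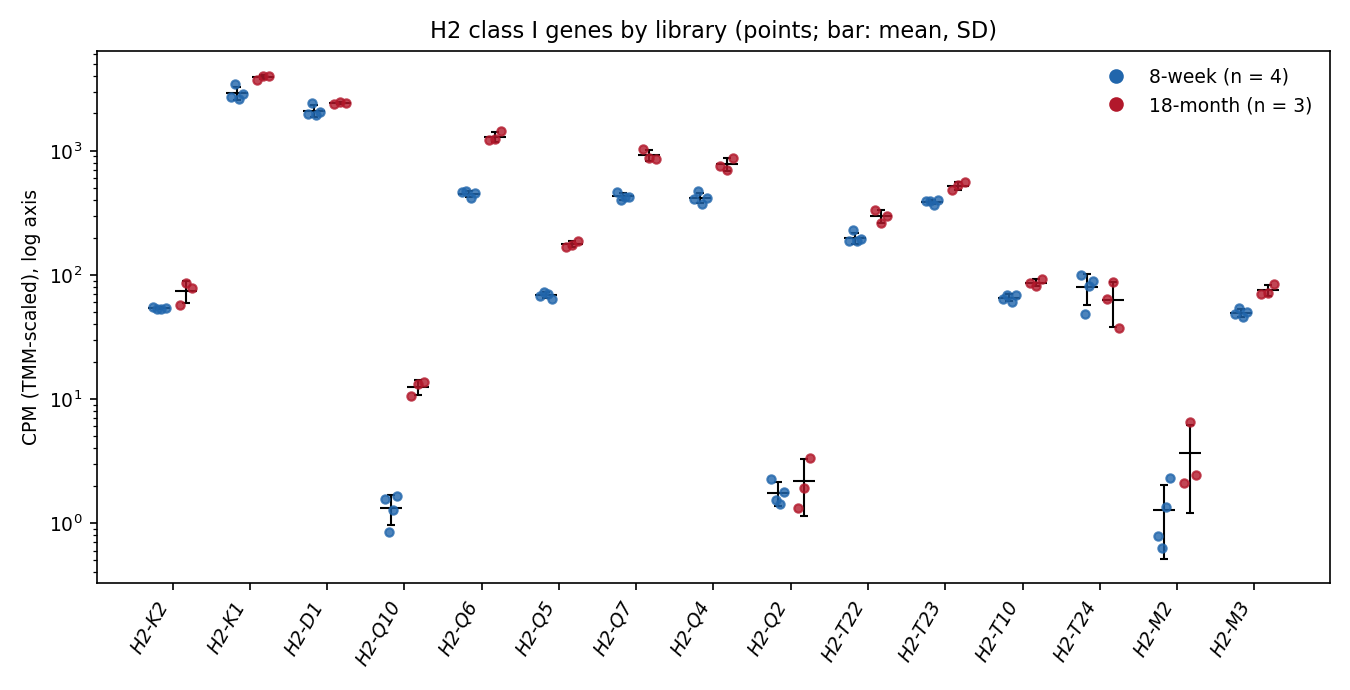
CPM (TMM scale, log axis) of the 15 H2 class I genes that passed the filter, 1 point per library, with a bar at the mean and whiskers of 1 SD, for young (8-week, n = 4, blue) and aged (18-month, n = 3, red) cells. The aged points of H2-Q6 lie between 1210 and 1437 CPM against 417 to 471 CPM in young libraries, while those of H2-D1 and H2-T24 overlap the young points.

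Near-identical copies bear on these values. The shares of 75-base windows found in another gene were 21.3% for H2-Q4, 21.1% for H2-Q6, 20.7% for H2-Q5 and 19.1% for H2-Q7. For H2-Q4, 13.8% of the windows lay in Gm11131, which overlaps 19.1% of its exon length. Reads that fit more than 1 of these genes could be lost or placed on the wrong copy, and no source used here states that counting used strand. H2-M3, Tap1 and Nlrc5 had no shared window and were called. The other tested genes without a shared window, B2m, H2-M2, Calr, Canx and Pdia3, were not called by edgeR. Outside the class I genes, 102 other genes between H2-K2 and H2-M2 (chr17:33974659-37483552) were tested, of which 13 were called higher (12.7%) and 4 lower, with a median log2 fold change of 0.18. Over all genes tested, 9.80% were called higher and 6.94% lower, and the median was 0.02. Whether this region differs from all genes was not tested.

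Of the 4 T genes tested, 3 were called higher, at log2 fold changes of 0.41 to 0.58, and each call was lost when certain libraries were left out. Whether T and Q genes differ in their response was not tested. H2-T23 (chr17:36029773-36032855) encodes the heavy chain of Qa-1, which presents leader peptides of classical chains to the CD94/NKG2A receptor. In aged cells H2-T23 was at 484, 531 and 555 CPM, and in young cells at 394, 397, 365 and 398 CPM. No aged library fell within the young range. The means were 524 ± 36.1 (SD, n = 3) and 388 ± 15.4 CPM (SD, n = 4). For H2-T23 the log2 fold change was 0.43 (SE 0.102, a 1.35-fold rise), and edgeR's quasi-likelihood test called it (adjusted p = 0.0244). The call was kept in only 2 of 7 fits with 1 library left out, and it was lost without aged replicate 2 (adjusted p = 0.0581), aged replicate 3 (0.0866), young replicate 1 (0.0601), young replicate 3 (0.0776) or young replicate 4 (0.0684), with log2 fold changes from 0.39 to 0.44 in these 5 fits.

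H2-T22 (chr17:36037128-36042747) and H2-T10 (chr17:36115876-36121465) are closely related genes whose chains some γδ T cells recognise. H2-T10 carries the deposited gene type polymorphic pseudogene. For H2-T22, aged libraries gave 331, 260.4 and 299 CPM and young libraries 186, 228, 187 and 194 CPM. The lowest aged library lay above the highest young one. H2-T22 thus averaged 297 ± 35.4 CPM over the 3 aged libraries (SD) and 199 ± 19.9 CPM over the 4 young ones. This was a 1.49-fold rise (log2 fold change 0.58, SE 0.122, adjusted p = 0.0163 in edgeR's quasi-likelihood test). The call was lost without aged replicate 3 (adjusted p = 0.0524), young replicate 3 (0.0546) or young replicate 4 (0.0543). H2-T10 had 86.3, 81.6 and 92.1 CPM in the aged libraries and 63.6, 69.2, 60.4 and 68.2 CPM in the young ones. These values too did not overlap. The means were 86.7 ± 5.26 (SD, n = 3) and 65.4 ± 4.11 CPM (SD, n = 4). For H2-T10 the log2 fold change was 0.41 (SE 0.0887, a 1.33-fold rise), and edgeR's quasi-likelihood test called it (adjusted p = 0.0184). Here the call was lost without aged replicate 3 (adjusted p = 0.0648), young replicate 1 (0.0555) or young replicate 3 (0.0588). Shared windows made up 46.3% of H2-T22 (31.1% with A930015D03Rik) and 36.0% of H2-T10 (25.9% with BC023719), the highest such shares among the called genes, so these counts are uncertain.

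H2-T24 had the largest standard error of the H2 genes above 10 CPM in both ages. It had 63.6, 87.5 and 37.4 CPM in aged and 99.5, 48.4, 81.5 and 88.5 CPM in young libraries. The ages overlapped, although aged replicate 3 lay below every young library, and the log2 fold change was -0.34 (SE 0.309, adjusted p = 0.491 in edgeR's quasi-likelihood test). With 1 library left out it ran from -0.65 without aged replicate 2 to -0.07 without aged replicate 3, and it was -0.52 without young replicate 2 and -0.21 without young replicate 1. None of these fits called it. H2-T3, which encodes the thymus leukemia antigen, had 1 to 3 reads per library and was not tested.

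Among the M genes, H2-M3 (chr17:37270220-37274484) encodes the chain that presents N-formylated peptides of bacteria and mitochondria. The aged libraries held 70.4, 71.8 and 84.1 CPM of H2-M3, and the young ones 48.1, 54.4, 45.9 and 50.1 CPM. The aged libraries were all above the young ones. H2-M3 thus averaged 75.4 ± 7.55 CPM over the 3 aged libraries (SD) and 49.6 ± 3.65 CPM over the 4 young ones. This was a 1.52-fold rise (log2 fold change 0.60, SE 0.1001, adjusted p = 0.00637 in edgeR's quasi-likelihood test). H2-M2 was low, at 2.10, 6.55 and 2.43 CPM in aged and 0.787, 0.631, 1.34 and 2.29 CPM in young libraries. Its ages overlapped, with a log2 fold change of 1.52 (SE 0.542) that edgeR's quasi-likelihood test did not call (adjusted p = 0.0903). DESeq2 called it higher (adjusted p = 0.0411), and without aged replicate 2, its highest library, the log2 fold change was 0.83 (adjusted p = 0.328 in edgeR). H2-M5 had 0 to 3 reads in aged and 3 to 9 in young libraries. H2-M10.1 and H2-M10.2, of a family known from the vomeronasal organ, had 0 to 1 read in each library.

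The classical chains carried most of the class I RNA, and none of the 3 classical genes was called. H2-K1 (chr17:33996017-34000347) and H2-D1 (chr17:35262730-35267499) encode the K and D molecules that present peptides to CD8+ T cells. In aged cells H2-K1 was at 3733, 4007 and 4022 CPM, and in young cells at 2732, 3424, 2616 and 2854 CPM. The ages did not overlap, although young replicate 2 stood above the other 3 young libraries. The means were 3921 ± 162 (SD, n = 3) and 2907 ± 358 CPM (SD, n = 4). At a log2 fold change of 0.43 (SE 0.149), H2-K1 was not called by edgeR's quasi-likelihood test (adjusted p = 0.0834). Without young replicate 2 it was 0.52 and was called (adjusted p = 0.0263), and DESeq2 and limma voom called it with all libraries (adjusted p = 0.00908 and 0.0334).

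For H2-D1, aged libraries gave 2364, 2455 and 2444 CPM and young libraries 1985, 2439, 1935 and 2041 CPM. Young replicate 2 lay within the aged range, so the ages overlapped. H2-D1 thus averaged 2421 ± 49.5 CPM over the 3 aged libraries (SD) and 2099.9 ± 229.9 CPM over the 4 young ones. Its log2 fold change of 0.21 (SE 0.137) was not called by edgeR's quasi-likelihood test (adjusted p = 0.341). The unprocessed pseudogene H2-K2 (chr17:33974659-33978827) lies next to H2-K1. H2-K2 had 57.6, 86.3 and 77.8 CPM in the aged libraries and 55.5, 53.5, 53.0 and 54.5 CPM in the young ones. Aged replicate 1 lay only just above the young libraries, and the other aged libraries clearly so. At a log2 fold change of 0.45 (SE 0.132), H2-K2 was not called by edgeR's quasi-likelihood test (adjusted p = 0.0506). Without aged replicate 1 it was 0.60 and was called (adjusted p = 0.00437). With all libraries it was called in 4 of the 9 alternative fits: by DESeq2 (adjusted p = 0.0428), without the mitochondrial, immunoglobulin and haemoglobin genes (0.0450), with a minimum of 10 reads in each library (0.0473) and with GC content and gene length trends removed (0.0404).

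Summed over the 21 H2 genes, heavy chain RNA was 10364, 10585 and 11005 CPM in aged libraries and 6969, 8135, 6639 and 7114 CPM in young ones. All aged sums were higher than all young sums. The means were 10652 ± 325 (SD, n = 3) and 7214 ± 645 (SD, n = 4), a difference of 3437 CPM and a ratio of 1.48. An exact two-sided permutation test over the libraries gave p = 0.0571, which is the smallest p that 3 against 4 libraries allow, and 0.0571 after Benjamini-Hochberg adjustment over the 3 values tested in this way.

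Non-classical genes took a larger share of this RNA in every aged library. Q, T and M genes together took 40.6%, 38.1% and 40.5% of the heavy chain counts in aged libraries and 31.5%, 27.3%, 30.6% and 30.4% in young ones. The aged shares were all above the young ones. The means were 39.8% ± 1.41 (SD, n = 3) and 29.96% ± 1.85 (SD, n = 4), which differed by 9.80 percentage points (exact two-sided permutation test, p = 0.0571, the smallest possible).

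Within these shares the Q genes made up 29.9% ± 1.38 in aged (n = 3) and 19.1% ± 1.14 in young (n = 4) libraries, with no overlap. The T genes made up 9.11% ± 0.192 and 10.2% ± 0.715, and the M genes 0.744% ± 0.0422 and 0.713% ± 0.0266. The M shares overlapped between the ages, and so did the T shares through young replicate 2. Classical genes correspondingly held 60.2% ± 1.41 and 70.0% ± 1.85. By single gene, the share of H2-Q6 was 12.1% ± 0.797 in aged and 6.27% ± 0.352 in young libraries, and that of H2-D1 was 22.7% ± 0.498 and 29.1% ± 0.665. H2-K1 went from 40.2% ± 1.31 in young to 36.8% ± 0.943 in aged libraries. The mean CPM of H2-K1 and H2-D1 was not lower in aged cells, so a lower share here means that other heavy chain genes took more of the counts.

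**Figure D3:**
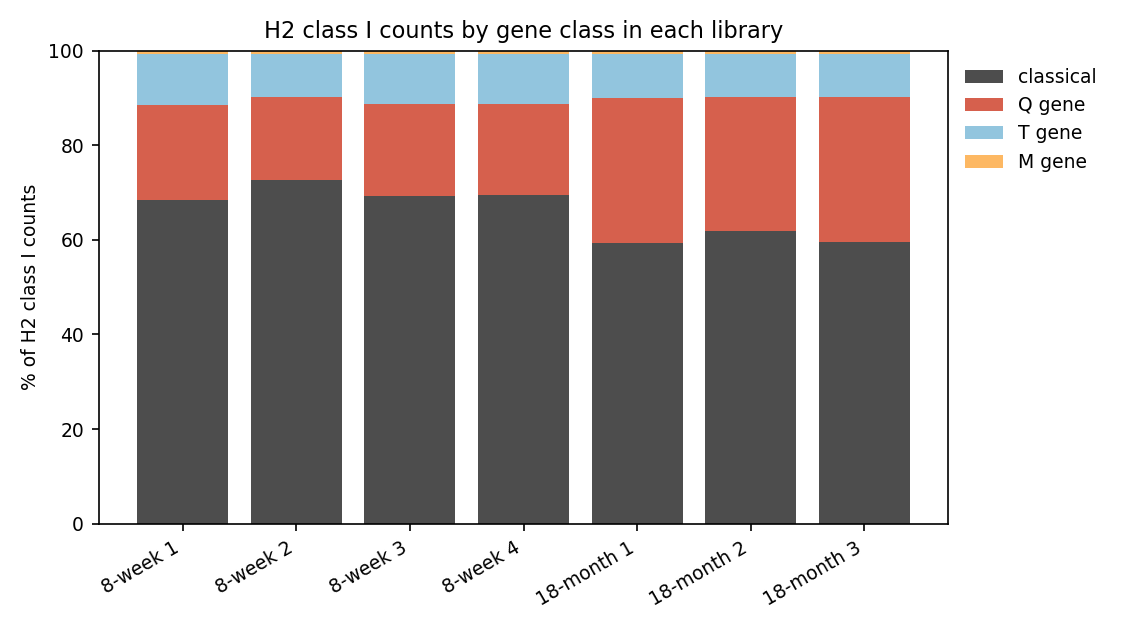
Share of the summed H2 class I counts that lay on classical, Q, T and M genes in each of the 7 libraries (stacked to 100%). The Q segment spans 28.3% to 30.8% of the bar in the 3 aged (18-month) libraries and 17.5% to 20.1% in the 4 young (8-week) ones.

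Levels per length give the order of the genes within a library. In CPM per kb of exon, B2m (2709 ± 54.3 in aged, 2098 ± 248 in young libraries) stood above H2-K1 (1334 ± 55.3 and 989 ± 122) and H2-D1 (939 ± 19.2 and 814 ± 89.2) at both ages. H2-Q6 came next, at 621 ± 59.5 in aged and 216 ± 11.4 in young cells, followed by H2-Q4 at 299.9 ± 36.1 and 161 ± 16.0. In aged cells H2-Q7 followed at 216 ± 21.0 and H2-T23 at 181 ± 12.5, and in young cells this order was turned, with H2-T23 at 134 ± 5.34 and H2-Q7 at 101 ± 6.14. Between neighbours in the order, the ranges of mean ± SD overlapped for 13 of 24 pairs in aged and 14 of 24 in young cells, so many places are not set apart by more than their spread. For example, Tapbp (97.7 ± 5.13) and Tap1 (95.2 ± 11.1) in aged cells, and Tap1 (59.5 ± 4.94), H2-T22 (58.2 ± 5.82) and Canx (57.6 ± 4.58) in young cells, lay within their spread of each other. H2-Q10 was last of the 25 genes in young cells (0.306 ± 0.0844). In aged cells (2.88 ± 0.388) it lay within the spread of H2-M2 (2.38 ± 1.60), the next gene down, and it stayed a minor transcript at both ages.

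The light chain gene was higher in every aged library but was not called. B2m (chr2:122147686-122153083) encodes β2-microglobulin, the light chain with which class I heavy chains pair. The aged libraries held 2367, 2278 and 2345 CPM of B2m, and the young ones 1687, 2122, 1731 and 1678 CPM. Young replicate 2 stood above the other young libraries, and all aged libraries were higher still. B2m thus averaged 2330.0 ± 46.7 CPM over the 3 aged libraries (SD) and 1805 ± 213 CPM over the 4 young ones. Its log2 fold change of 0.37 (SE 0.138) was not called by edgeR's quasi-likelihood test (adjusted p = 0.103). Without young replicate 2 it was 0.46 and was called (adjusted p = 0.0325), and DESeq2 (adjusted p = 0.0266) and limma voom (0.0464) called it with all libraries. These were 2 of the 9 alternative fits. The fit with GC content and gene length trends removed gave the smallest log2 fold change of the 9, 0.22, and did not call it. The log2 ratio of B2m counts to the summed heavy chain counts was -2.13, -2.22 and -2.23 in aged and -2.05, -1.94, -1.94 and -2.08 in young libraries. The means were -2.19 ± 0.0542 (SD, n = 3) and -2.002 ± 0.0747 (SD, n = 4), without overlap, and differed by -0.19 (exact two-sided permutation test, p = 0.0571, the smallest possible).

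Tap1 and Nlrc5 rose in aged cells. TAP1 and TAP2 form the pump that moves peptides into the endoplasmic reticulum. In aged cells Tap1 was at 547, 452 and 566 CPM, and in young cells at 317, 366, 305 and 316 CPM. Every aged library was above every young one. The means were 521 ± 60.8 (SD, n = 3) and 326 ± 27.1 CPM (SD, n = 4). For Tap1 the log2 fold change was 0.68 (SE 0.122, a 1.60-fold rise), and edgeR's quasi-likelihood test called it (adjusted p = 0.00866). The exons of Tap1 (chr17:34187553-34197225) overlap those of its neighbour Psmb9 over 3.87% of their length.

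For Tap2, aged libraries gave 155, 182 and 204 CPM and young libraries 137, 149, 134 and 141 CPM. The values of the ages touched closely without overlapping. Its log2 fold change of 0.36 (SE 0.110) was not called by edgeR's quasi-likelihood test (adjusted p = 0.0564). Without aged replicate 1 it was 0.45 and was called (adjusted p = 0.0162), and DESeq2 (0.0471) and the fit with GC content and gene length trends removed (0.0478) called it with all libraries. Nlrc5 (chr8:94434356-94527272) encodes the class I transactivator. Nlrc5 had 703, 496 and 507 CPM in the aged libraries and 346, 355, 304 and 302 CPM in the young ones. Aged replicate 1 was the highest library, and the other 2 aged libraries were also above all young ones. The means were 569 ± 117 (SD, n = 3) and 327 ± 27.5 CPM (SD, n = 4). For Nlrc5 the log2 fold change was 0.80 (SE 0.149, a 1.74-fold rise), and edgeR's quasi-likelihood test called it (adjusted p = 0.0103). With each library left out in turn the log2 fold change ran from 0.61 to 0.89 and was called in all 7 fits.

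None of the remaining loading genes was called. Tapasin (Tapbp) and its relative TAPBPR (Tapbpl) edit the peptides bound to class I. The aged libraries held 349, 339 and 375 CPM of Tapbp, and the young ones 291, 303, 284 and 309 CPM. The ages did not overlap, and the log2 fold change of 0.26 (SE 0.0945) was not called by edgeR's quasi-likelihood test (adjusted p = 0.1002). Genes that overlap it (Gm19412 and Zbtb22) cover 29.0% of the exon length of Tapbp. In aged cells Tapbpl was at 98.4, 97.4 and 88.4 CPM, and in young cells at 77.5, 91.2, 70.5 and 68.2 CPM. Young replicate 2 lay within the aged range. The log2 fold change was 0.30 (SE 0.117, adjusted p = 0.112 in edgeR's quasi-likelihood test), and it was 0.39 and called without young replicate 2 (adjusted p = 0.0370).

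The chaperones calreticulin (Calr), ERp57 (Pdia3) and calnexin (Canx) help newly made heavy chains to fold. For Calr, aged libraries gave 503, 515 and 425 CPM and young libraries 388, 427, 425 and 438 CPM. Pdia3 had 468, 441 and 437 CPM in the aged libraries and 381, 439.8, 389 and 411 CPM in the young ones. The aged libraries held 284, 237 and 225 CPM of Canx, and the young ones 245, 291, 286 and 261 CPM. The ages overlapped for all 3 genes. Their log2 fold changes were 0.20 (SE 0.112) for Calr, 0.15 (SE 0.102) for Pdia3 and -0.12 (SE 0.119) for Canx, with adjusted p-values of 0.261, 0.358 and 0.529 in edgeR's quasi-likelihood test.

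Erap1 encodes the aminopeptidase that trims peptides inside the endoplasmic reticulum. In aged cells Erap1 was at 132, 83.9 and 92.1 CPM, and in young cells at 129, 144, 140.3 and 121 CPM. Aged replicate 1 lay within the young range and the other aged libraries below it. At a log2 fold change of -0.38 (SE 0.161), Erap1 was not called by edgeR's quasi-likelihood test (adjusted p = 0.145). It was -0.60 and was called lower (adjusted p = 0.00924) without aged replicate 1, and it was the only class I gene called lower in any of the 7 fits that left out a library. Its neighbour Cast overlaps 11.5% of its exon length.

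**Figure D4:**
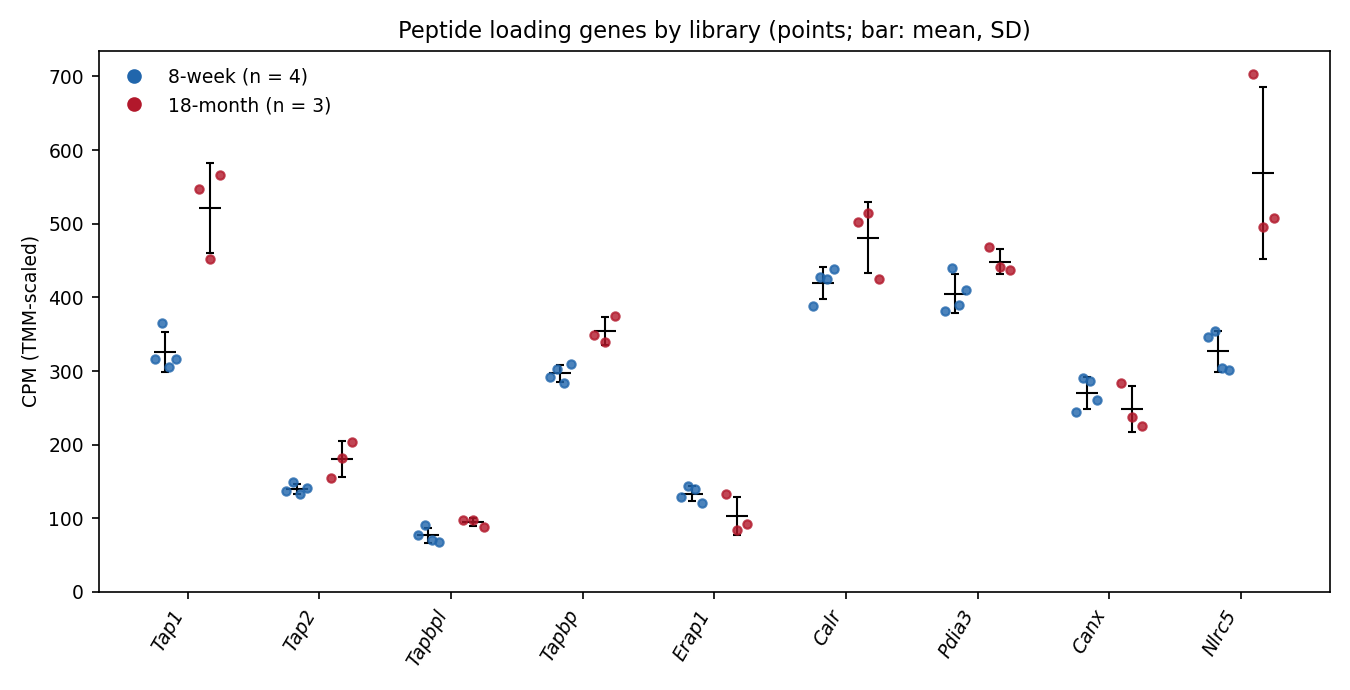
CPM (TMM scale, linear axis from 0) of 9 peptide loading genes, 1 point per library, with a bar at the mean and whiskers of 1 SD, for young (8-week, n = 4, blue) and aged (18-month, n = 3, red) cells. B2m is left off for its higher level; Tap1 and Nlrc5 are separated between the ages, while Calr, Pdia3 and Canx overlap.

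Of the 11 called genes, 8 kept their call with any 1 library left out: H2-Q4, H2-Q5, H2-Q6, H2-Q7, H2-Q10, H2-M3, Tap1 and Nlrc5. The other 3 were the T genes described above.

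Beyond these genes, 65 tested genes of 7 lists around the class I pathway held 14 called higher and 4 called lower in aged cells. Over all genes tested, 9.80% were called higher and 6.94% lower. Of the interferon-stimulated genes, 8 of 16 were called higher and 0 lower, beside these same shares of all genes tested. Their median log2 fold change was 0.75. Iigp1, a GTPase induced by interferon-γ, had 139, 123 and 124 CPM in aged and 34.6, 45.6, 37.6 and 35.3 CPM in young libraries, a log2 fold change of 1.75 (SE 0.116, adjusted p = 0.000235 in edgeR's quasi-likelihood test). Oas1a, a sensor of double-stranded RNA, had a log2 fold change of 1.88 (SE 0.244, adjusted p = 0.00241). Ifi44, a further interferon-stimulated gene, had 30.8, 6.14 and 8.14 CPM in aged libraries and 0.612 to 1.19 CPM in young ones (log2 fold change 4.00, SE 0.605, adjusted p = 0.00435), with the highest value in aged replicate 1. The other called genes of the list were Gbp2, Gbp3, Igtp, Irgm1 and Mx1, and the calls of Irgm1 and Mx1 were lost in 5 and 4 of the 7 fits that left out a library. The summed level of the list overlapped between the ages, at 1643 to 2451 CPM in aged and 796 to 1837 CPM in young libraries.

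Of the 18 regulators of class I transcription, 2 were called higher and 2 lower, beside 9.80% and 6.94% of all genes tested. Their median log2 fold change was -0.08. Irf1, a transcription factor of the interferon response, had 251, 246 and 333 CPM in aged and 159, 168, 145 and 168 CPM in young libraries. The ages did not overlap, and it rose by 0.79 on the log2 scale (SE 0.130, adjusted p = 0.00624 in edgeR's quasi-likelihood test). The receptor chain genes Ifngr2 (for interferon-γ) and Ifnar1 (for type I interferons) fell, by 0.83 (SE 0.0868, adjusted p = 0.00117) and 0.41 (SE 0.113, adjusted p = 0.0402) on the log2 scale. The call of Ifnar1 was kept in 1 of the 7 fits that left out a library, the one without aged replicate 1, and the highest adjusted p of the others was 0.121. The calls of Irf1 and Ifngr2 were kept in all 7.

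Psmb9 encodes a catalytic subunit of the immunoproteasome and lies beside Tap1. Of 5 immunoproteasome genes, only Psmb9 was called, as higher, beside 9.80% of all genes tested called higher. It had 179.7, 175 and 216 CPM in aged and 102, 126, 98.8 and 105 CPM in young libraries, and the ages did not overlap. Its log2 fold change was 0.82 (SE 0.121, adjusted p = 0.00405 in edgeR's quasi-likelihood test). The summed level of the 5 genes (Psmb8, Psmb9, Psmb10, Psme1 and Psme2) was 967 to 1157 CPM in aged and 764 to 912 CPM in young libraries. Of the 3 catalytic subunits of the constitutive proteasome, Psmb5 was called lower (log2 fold change -0.35, SE 0.0980, adjusted p = 0.0434), a call lost with any 1 library left out (adjusted p from 0.0581 to 0.125). None of the 6 cytosolic and other peptidases and none of the 11 genes of entry and folding in the endoplasmic reticulum was called by edgeR, DESeq2 or limma voom. At an unadjusted p under 0.05 in edgeR, 1 of the 6 and 0 of the 11 were lower and 0 of either list were higher, and the median log2 fold changes were -0.25 and -0.06.

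Among the 6 tested class I-like genes outside the H2 complex, 3 were called higher and 1 lower, beside 9.80% and 6.94% of all genes tested. Cd1d1, whose product presents lipids to NKT cells, had 54.8, 66.0 and 61.8 CPM in aged and 41.1, 42.1, 40.5 and 40.3 CPM in young libraries. This was a log2 fold change of 0.57 (SE 0.0892, adjusted p = 0.00509 in edgeR's quasi-likelihood test) that was called in all 7 fits with a library left out. Cd1d2, its close copy, had a log2 fold change of 1.21 (SE 0.314, adjusted p = 0.0343) at 22 to 43 reads in aged and 9 to 20 in young libraries, and was called in 1 of the 7 fits. Hfe, a regulator of iron uptake, fell by 1.03 on the log2 scale (SE 0.224, adjusted p = 0.0184), with 4 of the 7 fits calling it. The other called gene, Mr1, which presents vitamin B metabolites to MAIT cells, kept its call in 2 of the 7 fits, and Azgp1 stayed under the filter.

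**Figure D5:**
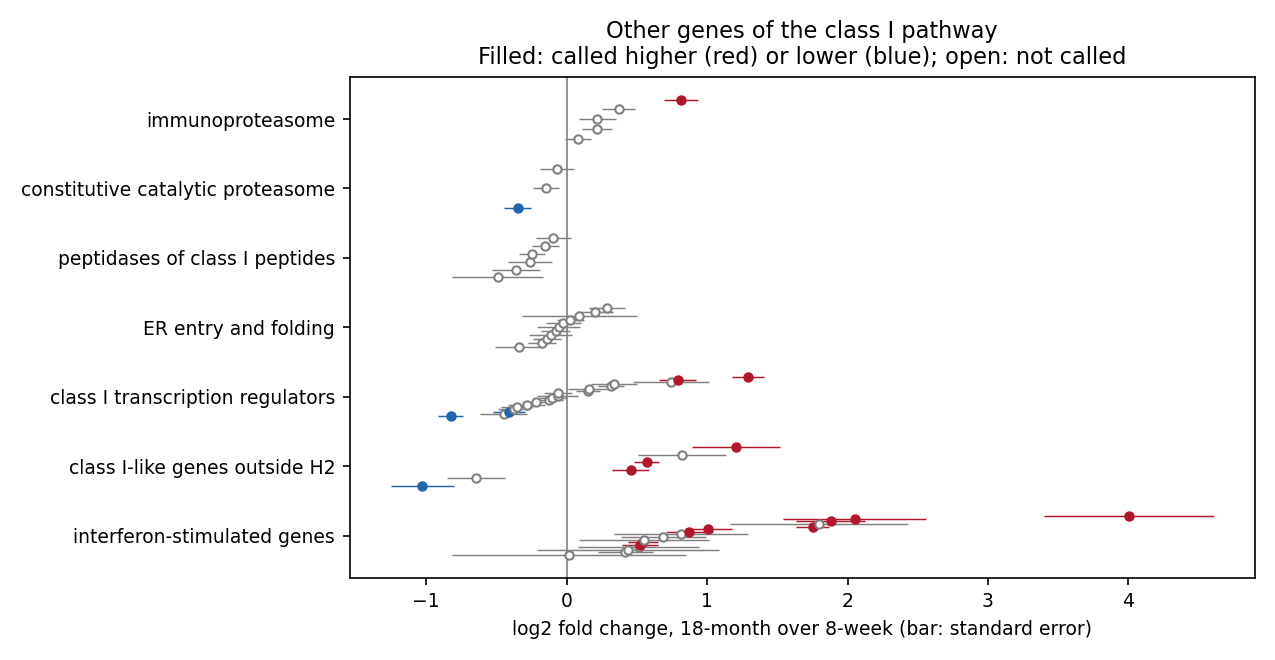
Log2 fold change of aged over young cells with bars of 1 standard error for the 65 tested genes of 7 pathway lists, 1 point per gene. Filled points had an adjusted p under 0.05 in edgeR (14 higher, red; 4 lower, blue), and the interferon-stimulated genes hold 8 of the 14 red points, the highest being Ifi44 at 4.00.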

How the data were processed

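RNA-sequencing counts of 7 libraries (3 aged, 4 young) were used. The authors deposited raw read counts per Ensembl gene for each library, without normalization. Lines for reads outside genes or on more than 1 gene (13.1% to 20.9% of reads per library) stayed out of library sizes and tests. A series table of 25469 genes holds the deposited signal, which is the gene counts divided by 1 size factor per library, and served for symbols and gene types. It also holds the authors' own comparison (mean, log2 fold change, its error, statistic, p-value and adjusted p-value), which was not used. The build was mm10 per the submitters' processing notes, and the aligner is not given in the sources used here. No source used here gives the strand setting of the counting.

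Counts were tested with edgeR 4.0.16 in R 4.3.3 (TMM, filterByExpr by group, quasi-likelihood test, no covariate), with Benjamini-Hochberg adjustment over 13904 genes. Standard errors were derived from the fold change and the F statistic. Exact permutation tests are two-sided. The code was tested on simulated data. Gene counts of 10734234 to 13649310 per library limit the precision for genes with few reads. Libraries of the same age differed by more than read sampling alone would give (chi-square per degree of freedom of 8.16 to 165). p-values measure the spread between these libraries. Coordinates come from GENCODE M21 (GRCm38), and promoters are RefSeq's on GRCm38.p6.

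The members and lists were chosen with earlier results of these data known. Every class I gene of the symbol rule is named. Values in every library were given for genes called or at 10 CPM or more, and at most 3 called genes per pathway list were described with values, those with the smallest adjusted p. Other called genes of these lists were named beyond this rule, after their values were seen, with values for Ifnar1. The regulator of class I transcription called higher beside Irf1 is neither described nor named. Results for some genes of these lists are not reported here. The alternatives were DESeq2 1.42.0, limma 3.58.1 (voom), RLE factors, library size only, mitochondrial, immunoglobulin and haemoglobin genes left out, no filter, at least 10 counts in every library, GC content and gene length trends removed, the replicate number as a block, counts per exonic length for the ratio and share, and each library left out in turn.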

Additional observations from a re-analysis of the deposited data

Results flagged for a closer look

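Of 28 results checked in the young group for a library far from the others, 2 stood out, where chance would give about 1 in 20. The critical value was for groups of 4 libraries only, so the 3 aged libraries were not judged by this rule. H2-T23 had 365 CPM in young replicate 3, its lowest value, against 394 to 398 CPM in the other 3 young libraries. The gap made up 0.862 of the group's range, past Dixon's 95% critical value for 4 libraries. B2m had 2122 CPM in young replicate 2, its highest value, against 1678 to 1731 CPM in the other 3 young libraries (0.879 of the range).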

How the results depend on the processing

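The count of class I genes called higher (11) ran from 8 (library size only) to 16 (DESeq2) over the alternatives without a block, and from 8 to 14 with 1 library left out in turn. The count called lower (0) was 0 to 1 with a library left out, the 1 being Erap1 without aged replicate 1. The pathway list genes called lower (4) became 7 with DESeq2 and ran from 1 to 7 with a library left out, and those called higher (14) ran from 10 to 15. Over all genes, 2327 were called by edgeR and 1237 to 3058 with a library left out.

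With the replicate number as a block, 4 class I genes were called higher (H2-Q5, H2-Q6, H2-Q7 and H2-Q10), 2 pathway list genes were called higher and 1 lower, and 292 genes in all. The blocked differences were 3404 CPM for the heavy chain sum, -0.22 for the log2 ratio of B2m and 9.95 percentage points for the share of Q, T and M genes. Over all genes, the deviations of same-numbered libraries from their group means had correlations of -0.09, -0.29 and -0.14. Those of libraries with different numbers ran from -0.241 to 0.227. Such correlations cannot settle whether the numbers pair the samples, and no source used here says so.

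The heavy chain sum differed by 2990 to 3977 CPM over the scalings and by 3245 to 3744 CPM with a library left out. The log2 ratio of B2m differed by -0.22 to -0.17 and the share by 8.90 to 10.6 points with a library left out, and by -0.21 and 10.7 points per length. Among single genes, H2-Q2 (0.32) ran from -0.12 to 0.59 with a library left out, turning only without aged replicate 3, and the cause was not tested. With a library left out, 157 of the 175 log2 fold changes kept direction and side of the threshold, 11 fell below it and 6 passed it. H2-T10, H2-T22 and H2-T23 lost their calls with library size only, and H2-T23 also without a filter. H2-Q2, H2-M2 and the 6 genes under the filter rest on few reads, which limits the precision of their values.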
